A study of Zea mays with 11 samples.

Results

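Maize genes that lie far from other genes were described here: the 4155 of 39423 nuclear gene models with the fewest neighbours. For each gene the other gene models on its chromosome that start within 1 Mb of its own start were counted, and the genes at or below the 10th percentile of this count were taken, which came to 21 neighbours or fewer. Ties at 21 raise the share slightly above 10%. The count uses positions alone, so the methylation levels had no part in the choice. Genes of gene-poor regions had a median of 17 neighbours, against 48 for the other 35268 nuclear genes.

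Cytosine methylation was measured by bisulfite sequencing in the inbred line Mo17, grown in the field and self-pollinated, in a series whose title concerns starch synthesis. Gene positions and neighbour counts are those of the deposited gene models, and whether they hold in Mo17 was not tested. The 11 libraries are whole seed at 3 and 5 days after pollination, ear leaf at 13 days, which the submitters name as the control, and hand-dissected endosperm at 8 stages. The endosperm stages run from day 7 to day 25, with days 9, 10, 11, 13, 15 and 20 between them. Each stage has 1 library and no replicate, so every p-value below treats libraries of different days as the units. None measures a spread between replicates. Whole seed holds maternal tissue and embryo beside endosperm, and seed and endosperm differ in day as well as in tissue, so tissue and age cannot be told apart.

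In plants, methylation is found at cytosines in the CG, CHG and CHH contexts, where H is A, C or T. CG and CHG methylation are copied after DNA replication by dedicated enzymes, and both mark the transposon-rich heterochromatin around centromeres, while CG methylation alone is also common in the bodies of active genes. CHH methylation must be set anew, and in maize it is known for short islands upstream of genes where RNA-directed methylation meets the edge of heterochromatin. Endosperm, the starch-storing tissue of the kernel, is known to hold less methylation than other tissues at many maternal sites.

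The deposited tables hold 143230169 (leaf) to 223198948 (11-day endosperm) cytosine calls, organelle models included. Genes of gene-poor regions held from 13.4% to 15.0% of the calls of a library. A gene counted as measured with 10 or more calls in every library, separately for gene body and upstream region and for each context. Of the 4155 genes, 3109 were measured in all 6 measures and 108 in none. The median over genes of calls was 353 in body CG and 373 in upstream CG. Chloroplast DNA, which should lack methylation, read as 8.59% and 6.38% body CHG in whole seed, 2.41% in leaf and from 2.10% to 2.72% in endosperm. Chloroplast body CHH in seed, 0.956% and 0.828%, lay within the endosperm range of 0.697% to 1.02%. Chloroplast body CG was higher in seed as well, at 6.60% and 5.79%, against 2.26% in leaf and from 1.97% to 2.85% in endosperm. Mitochondrial body CHG was 2.25% and 2.29% in seed, 3.03% in leaf and from 1.71% to 2.05% in endosperm. Mitochondrial upstream CHG was 3.41% and 3.33% in seed, 5.98% in leaf and from 2.46% to 3.23% in endosperm. The part of this background in the seed and leaf results was not tested.

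The genes sat mostly in the middle of the chromosomes. In the middle 50% of their chromosome lay 83.8% of genes of gene-poor regions, against 29.1% of the other genes. They formed 223 unbroken runs along the chromosomes, the longest of 232 genes over 31.0 Mb on chromosome 1. They made up from 6.88% of the genes of chromosome 8 to 14.9% of those of chromosome 7. Their median distance to the nearest gene was 32.9 kb, against 4.204 kb for the other genes. Their median length was 2131 bp, against 2532 bp for the others, and 36.2% of them, against 49.0% of the others, matched a RefSeq gene. Only 21 of them lie within 1 Mb of the outermost gene of a chromosome, where the count is cut short by the chromosome end.

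**Figure D1:**
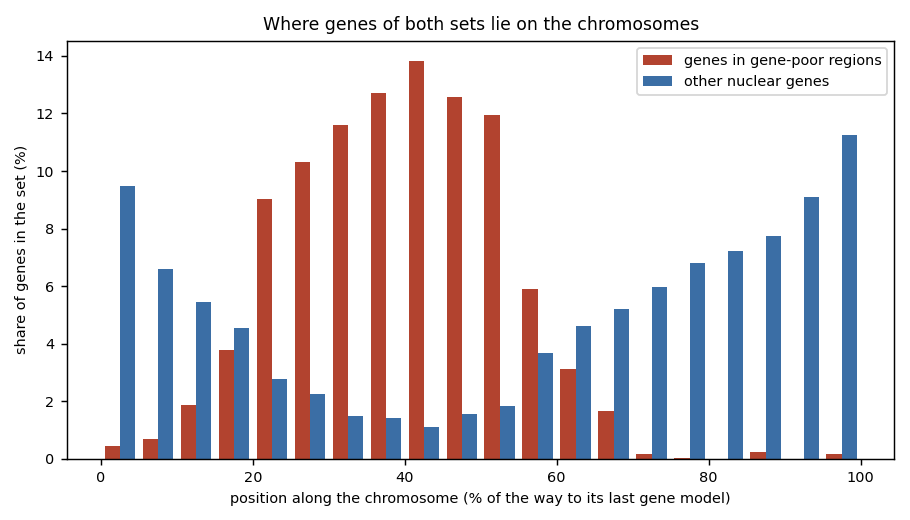
Share of genes (%) by position along the chromosome, as a percentage of the way to its last gene model, over the 10 chromosomes together. Red bars are the 4155 genes of gene-poor regions and blue bars the 35268 other nuclear genes; 83.8% of the red genes and 29.1% of the blue genes lie in the middle 50% of the axis.

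Genes in gene-poor regions were more methylated than other genes in CG and CHG, inside the gene and upstream of it, and less methylated in upstream CHH. In endosperm the gene body CG level averaged 42.8% ± 1.02 over genes of gene-poor regions and 28.3% ± 0.734 over the other genes (SD between libraries, n = 8). Body CHG averaged 29.3% ± 2.03 against 17.1% ± 1.13. Upstream CG averaged 74.7% ± 1.85 against 58.4% ± 1.93, and upstream CHG 58.4% ± 4.04 against 45.1% ± 2.99. Upstream CHH ran the other way, at 3.67% ± 0.510 in gene-poor regions against 4.42% ± 0.647 elsewhere. Body CHH differed little, at 1.78% ± 0.116 against 1.57% ± 0.117.

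The direction of each of these 6 differences was the same in all 8 endosperm libraries, and the exact sign-flip permutation test gave p = 0.00781 for each, the smallest that 8 libraries can give. Adjusted over 6 measures it stayed at 0.00781. The differences were 14.5 percentage points in body CG, 12.2 in body CHG, 0.204 in body CHH, 16.3 in upstream CG, 13.3 in upstream CHG and -0.742 in upstream CHH. The 8 libraries share the same genes, so they replicate the measurement and not the choice of genes. On each of the 10 chromosomes taken alone the difference had the same sign as in the whole. It ranged from 7.43 to 20.6 percentage points in body CG, from 9.67 to 15.9 in upstream CHG and from -1.17 to -0.386 in upstream CHH.

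The same order held in the other tissues. Body CHG over genes of gene-poor regions was 35.9% and 34.7% in whole seed at 3 and 5 days, against 20.9% and 20.1% over the other genes. In the leaf it was 35.4% against 20.4%. Upstream CHH was 5.15% and 4.51% in the seed libraries over genes of gene-poor regions, against 6.29% and 5.32% over the other genes, and 4.40% against 5.33% in the leaf.

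**Figure D2:**
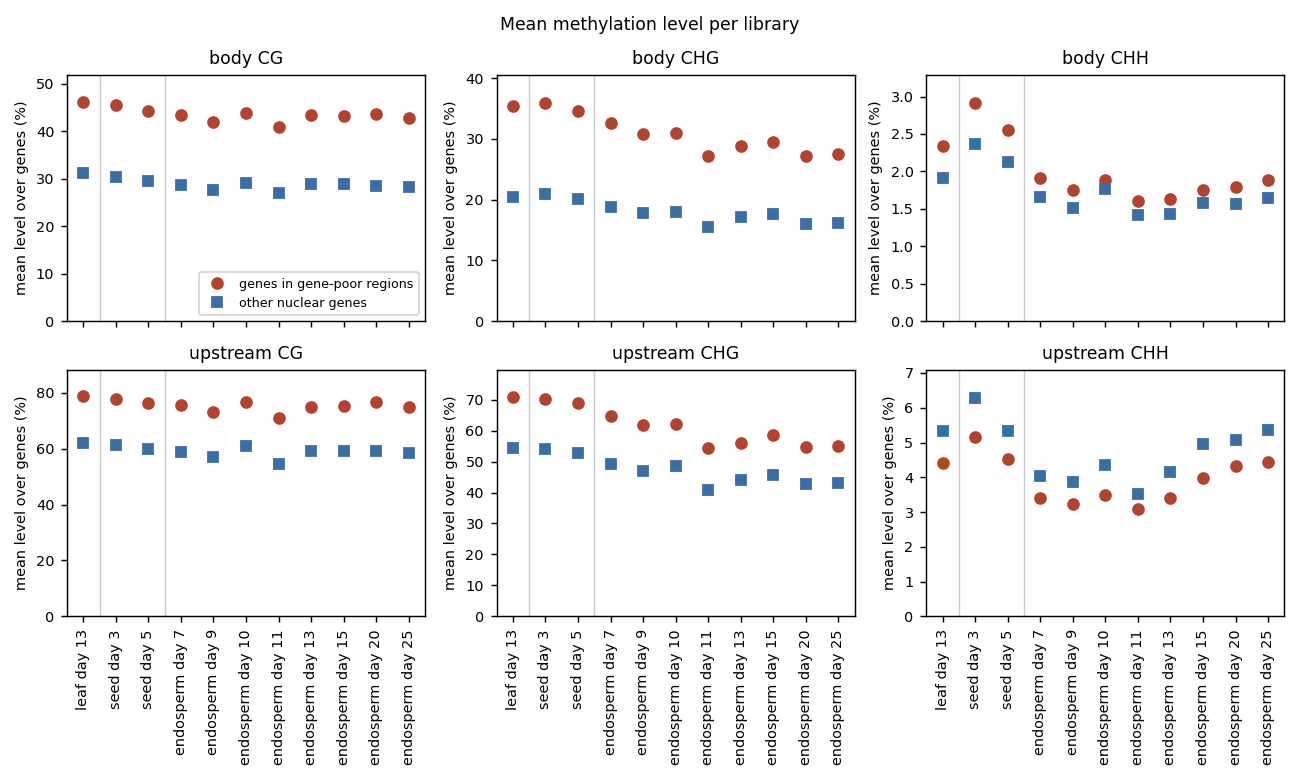
Mean methylation level (%) over genes in each of the 11 libraries, in 6 panels for gene body and upstream CG, CHG and CHH. Red circles are genes of gene-poor regions and blue squares the other nuclear genes; red lies above blue in every library of the first 5 panels and below it in every library in upstream CHH.

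The gene-poor genes form the low end of a gradient. With all nuclear genes put into 10 groups by neighbour count, endosperm body CG was 42.8% in the gene-poor group, 35.9% in the next group (22 to 29 neighbours) and 24.0% in the group with 81 to 153 neighbours. Upstream CHG was 58.4% in the gene-poor group, 53.5% in the next and 35.4% in the most gene-rich. Upstream CHH was 3.67% in the gene-poor group, 4.04% in the next, 4.71% in the group with 66 to 80 neighbours and 4.55% in the most gene-rich. Beside the threshold the levels hardly stepped: the 459 genes with 21 neighbours had a body CG level of 38.3% and an upstream CHG level of 54.7%, and the 505 genes with 22 had 36.7% and 55.3%.

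**Figure D3:**
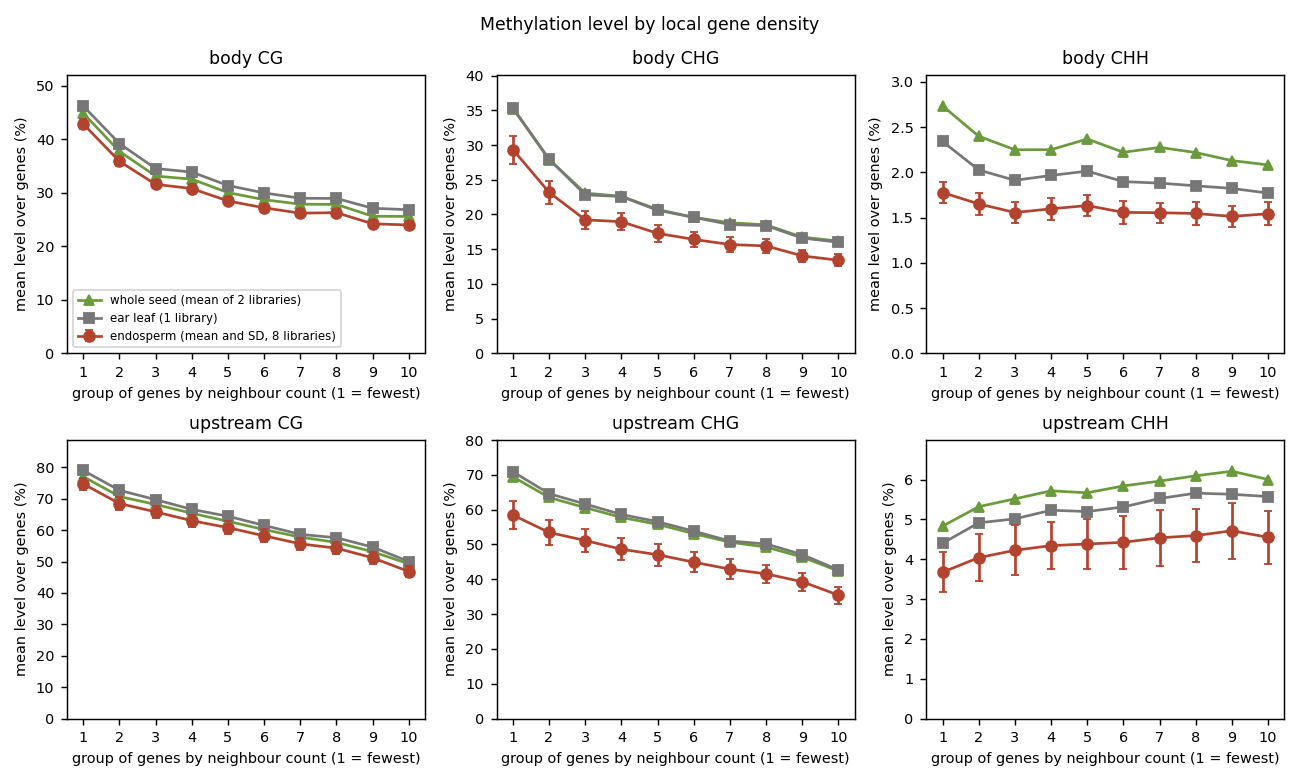
Mean methylation level (%) over genes in 10 groups of genes by neighbour count, from group 1 (fewest neighbours) to group 10, in 6 panels. Green triangles are whole seed, grey squares the leaf and red circles endosperm with the SD of 8 libraries; endosperm body CG is 42.8% in group 1 and 24.0% in group 10.

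The gradient went on within the gene-poor genes. The 383 genes with 6 to 10 neighbours had an endosperm body CHG level of 37.0% ± 2.55 and an upstream CHG level of 62.7% ± 4.33 (SD between 8 libraries). The 2611 genes with 16 to 21 neighbours had 26.8% ± 1.87 and 56.8% ± 3.92. Upstream CHH was 3.23% ± 0.388 in the sparser and 3.79% ± 0.537 in the denser of these classes. The 42 genes with 1 to 5 neighbours lay beside the next class, at 36.3% body CHG and 64.6% upstream CHG.

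Heavily methylated gene bodies made up a larger share of the genes in gene-poor regions. In endosperm, body CHG reached 50% or more in 33.7% of genes of gene-poor regions that had both body CG and CHG measured, against 16.3% of the other genes. Of these heavily methylated genes, 19.8% in gene-poor regions and 18.5% elsewhere matched a RefSeq gene. Both body CG and body CHG were under 5% in 26.8% of gene-poor genes, against 36.8% of the others. The class with body CG of at least 20% and body CHG under 5%, the pattern of methylated active genes, held 6.40% of gene-poor genes and 8.0% of the others.

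**Figure D4:**
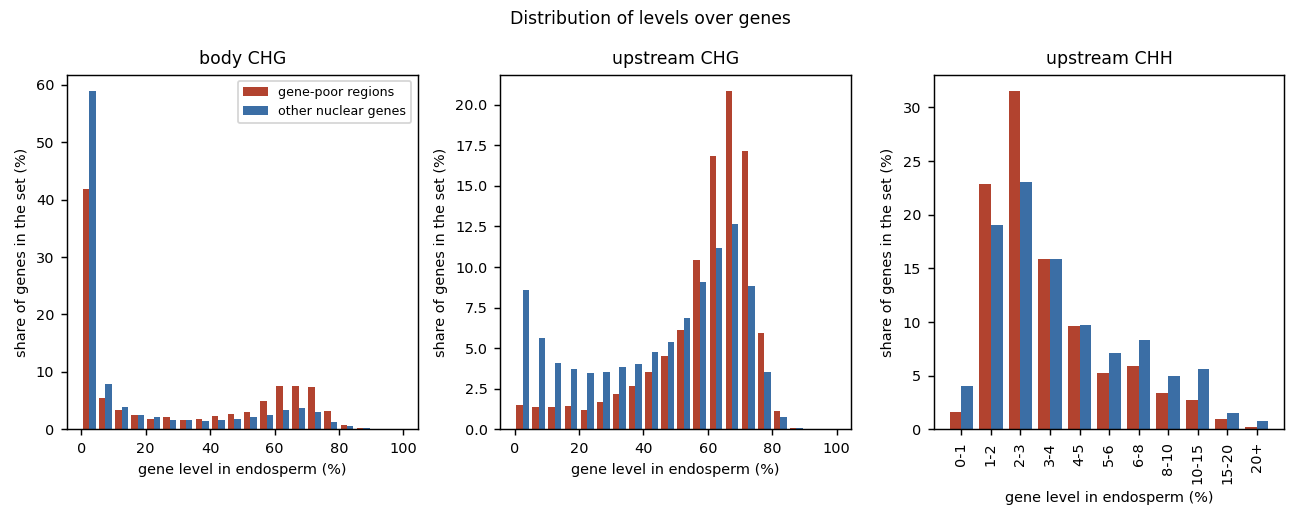
Share of genes (%) by the gene's mean endosperm level, for body CHG and upstream CHG in steps of 5 percentage points and for upstream CHH in the steps written below the bars. Red bars are genes of gene-poor regions and blue bars other nuclear genes; 41.8% of red and 58.8% of blue genes fall below 5% body CHG, and 1.52% of red against 8.60% of blue fall below 5% upstream CHG.

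Genes with little CHG methylation in their body still had heavily methylated upstream regions when they lay in gene-poor regions. Among genes with a leaf body CHG level under 10%, a class chosen after values were seen, endosperm body CG was 11.2% ± 0.410 in gene-poor regions and 10.6% ± 0.349 elsewhere (SD, n = 8). Body CHG was 3.07% ± 0.428 against 2.76% ± 0.296. Upstream CG was 69.2% ± 1.92 against 53.6% ± 1.95 and upstream CHG 54.5% ± 3.63 against 41.6% ± 2.80. The choice by body CHG in itself brings the body levels close, so the body values are a description only. Among genes with leaf body CHG of 10% or more, body CG was 70.8% ± 1.71 in gene-poor regions and 62.1% ± 1.74 elsewhere, and body CHG 52.3% ± 3.48 against 44.3% ± 2.83. Upstream CG of these genes was 79.6% ± 1.85 against 66.1% ± 1.93. Their body CHH ran opposite to that of all genes, at 2.25% ± 0.159 in gene-poor regions against 2.34% ± 0.180 elsewhere.

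The upstream difference was also seen on both sides of a 20 kb distance to the nearest gene, in classes chosen after values were seen. Distances within each class were not matched. Over the whole sets the median was 32.9 kb in gene-poor regions and 4.204 kb elsewhere. Among genes whose nearest neighbour is over 20 kb away, upstream CG was 76.5% ± 1.89 in gene-poor regions and 68.3% ± 2.11 elsewhere. Among genes with a neighbour within 20 kb it was 72.1% ± 1.81 against 55.0% ± 1.88. In the middle 50% of the chromosomes alone, upstream CHG was 58.9% ± 4.12 against 49.7% ± 3.33, and body CG 43.6% ± 1.01 against 31.5% ± 0.773. Among models matched to RefSeq, body CHG was 16.4% ± 0.885 against 9.43% ± 0.667 and upstream CHH 4.62% ± 0.750 against 4.90% ± 0.754.

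Whole seed was more methylated than endosperm in these genes, by the most percentage points in upstream CHG and in proportion by the most in body CHH. The seed mean was 1.54 times the endosperm mean in body CHH, 1.31 times in upstream CHH, 1.20 times in body CHG and 1.19 times in upstream CHG. Upstream CHG averaged 69.4% ± 0.894 (SD, n = 2) in whole seed and 58.4% ± 4.04 (SD, n = 8) in endosperm, and stood at 70.9% in the leaf. The seed libraries held 70.1% and 68.8%, and the endosperm libraries ran from 54.4% at 11 days to 64.8% at 7 days with a median of 57.3%, so the groups did not overlap. Whole seed stood 11.0 percentage points above endosperm (exact permutation over 45 splits p = 0.0222, adjusted over 6 measures p = 0.0333). Body CHG was 5.92 points higher, body CHH 0.958 and upstream CHH 1.16, each with the same exact permutation p-values. Body CG, 2.01 points higher, gave an adjusted exact permutation p of 0.0533, and upstream CG, 2.33 points higher, one of 0.178.

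No endosperm library reached the leaf's level in 5 of the measures, and 1 did in upstream CHH; the single leaf library allows no test. Leaf minus endosperm was 12.5 percentage points in upstream CHG, 6.02 in body CHG and 3.36 in body CG over genes of gene-poor regions. With either seed library left out the split test cannot reach the threshold: upstream CHG was then 10.4 points higher in seed without the 3-day library (adjusted exact permutation p = 0.167) and 11.6 without the 5-day library (adjusted exact permutation p = 0.133).

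In percentage points the gap between seed and endosperm was wider in gene-poor regions than elsewhere in 3 measures. The difference of differences was 2.53 points in body CHG, 2.65 in upstream CHG and 0.286 in body CHH (adjusted exact permutation p = 0.0444 each). As a ratio, genes of gene-poor regions held 1.72 times the body CHG of other genes in seed and 1.72 times in endosperm, and 1.30 times the upstream CHG in both. On the log2 ratio scale the difference was 0.0041 in body CHG and 0.0038 in upstream CHG (adjusted exact permutation p = 1.0 each). In body CHH the ratio was 1.22 in seed and 1.13 in endosperm, and both seed libraries, at 1.23 and 1.20, lay above all 8 endosperm libraries, the highest at 1.16. The log2 ratio of body CHH differed by 0.107 (exact permutation p = 0.0222, adjusted over 6 measures 0.133). None of the 3 differences in percentage points passed with medians over genes or with calls pooled over genes. With 1 library left out they ran from 2.28 to 2.77 in body CHG, from 2.44 to 2.98 in upstream CHG and from 0.225 to 0.346 in body CHH. The splits left then allow 3 tied measures no adjusted exact permutation p under 0.0556, so that the lost call says nothing of their size.

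Gene by gene, upstream CHG passed the test most often. Of 3871 gene-poor genes tested, 752 had higher upstream CHG in whole seed than in endosperm at an adjusted p under 0.05 in limma (Benjamini-Hochberg over all genes), and 0 lower. This is 19.4% of them, against 14.7% of all genes tested (14.6% higher in seed). Their median change was 11.1 percentage points, against 8.66 over all genes, and 94.6% of the 3871 genes had a positive change, against 86.4% of all genes. With library medians subtracted 15 passed, with day as a covariate 0, without the 3-day seed library 0 and without 5-day seed 7. Without the 7-day endosperm library 1385 passed, and without the libraries of day 11, 13, 15, 20 or 25 from 358 to 408.

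The other measures gave fewer calls. In upstream CHH 273 of 3994 gene-poor genes passed, 271 of them higher in seed, where 7.53% of all genes did (7.51% higher in seed). In body CHH 225 of 3413 passed, all higher in seed, where 5.42% of all genes did. In body CHG 176 of 3267 passed, 175 of them higher in seed, against 4.19% of all genes (4.15% higher in seed). In body CG 42 of 3166 passed, 41 of them higher, against 1.25% (1.19% higher), and in upstream CG 21 of 3876, all higher, against 0.519% (0.508% higher). The shares among gene-poor genes were 6.84%, 6.59%, 5.39%, 1.33% and 0.542%. Counts without the 3-day seed library were 86 in upstream CHH, 134 in body CHH, 9 in body CHG, 9 in body CG and 0 in upstream CG. The 5-day seed library left out gave 28, 20 and 4 in body CHG, body CG and upstream CG. Body CHG gave 315 without the 7-day endosperm library and from 104 to 115 without the library of day 11, 13, 15, 20 or 25. Body CG gave 25, 26 and 22 without day 9, 11 or 25, and upstream CG 12 without day 15.

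Through the endosperm days, upstream CHH rose in gene-poor regions, and it rose over the other genes as well. In gene-poor regions the mean level was 3.42% at day 7, 3.24% at day 9, 3.50% at day 10, 3.09% at day 11, 3.40% at day 13, 3.98% at day 15, 4.32% at day 20 and 4.45% at day 25. The first 5 stages moved within a narrow band and the last 3 lay above all of them. Pearson r with day was 0.898 (exact permutation p = 0.00308, adjusted over 6 measures 0.0185). The fitted line climbed by 1.36 percentage points between days 7 and 25. Spearman rho was 0.690 (adjusted exact permutation p = 0.139), and without days 20 and 25 r was 0.577 (exact permutation p = 0.225). With fewer libraries and a shorter range of days left, this cannot tell whether the relation rests on those 2 libraries. The relation also lost its call without day 15 alone (r = 0.907, adjusted exact permutation p = 0.123), without day 20 alone (r = 0.876, p = 0.105) and without day 25 alone (r = 0.835, p = 0.109). Over the other genes the level was 4.04% at day 7, 3.51% at day 11, 4.96% at day 15 and 5.37% at day 25. The difference between gene-poor and other genes had no called trend with day (r = -0.517, adjusted exact permutation p = 0.385).

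CHG levels were lower at later days without passing the test. Body CHG stood at 32.6% on day 7, at 27.2% on day 11 and at 27.5% on day 25 (r = -0.739, rho = -0.762, adjusted exact permutation p = 0.0852 and 0.139). Upstream CHG stood at 64.8% on day 7, at 54.4% on day 11 and at 54.9% on day 25 (r = -0.718, rho = -0.690, adjusted exact permutation p = 0.0852 and 0.139). The 11-day library, the deepest, held the lowest level of the endosperm libraries in 5 of the 6 measures; without it r was -0.920 in body CHG and -0.881 in upstream CHG (adjusted exact permutation p = 0.0113 and 0.0163).

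The excess of CHG methylation over other genes shrank with day in percentage points. In upstream CHG it stood at 15.7 points on day 7, 13.6 on day 10, 12.1 on day 13 and 11.9 on day 25 (r = -0.825, rho = -0.952, adjusted exact permutation p = 0.0378 and 0.00685). In body CHG it stood at 13.9 points on day 7, 11.8 on day 13 and 11.3 on day 25 (r = -0.824, rho = -0.881, adjusted exact permutation p = 0.0378 and 0.0217). Without days 20 and 25 r was -0.916 and -0.859. On the log2 ratio scale r was -0.596 in both (adjusted exact permutation p = 0.374), and r lost its call without any 1 of days 7, 9, 10, 15 and 20 in both measures and without day 11 in upstream CHG (r from -0.834 to -0.784).

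By single genes only upstream CHH gave calls with day in gene-poor regions. There 63 of 3994 passed in limma, all rising, where 1.85% of all genes passed. The count was 0 without day 25, 6 without day 10, 13 without day 9, 17 without day 11 and 22 without day 7, 4 on the arcsine scale, and 0 with trended and robust moderation or with the quasi-binomial model. In body CHH 0 of 3413 passed in limma, against 0.0277% of all genes, with 274 at an unadjusted p under 0.05, which is 8.03% of them against 7.66% of all genes. In body CG, body CHG, upstream CG and upstream CHG limma called 0 gene-poor genes and 0 of all genes, a percent called of 0, and the quasi-binomial model also called 0. An unadjusted p under 0.05 was found in 187 gene-poor genes in body CG (5.91%, against 5.39% of all genes) and in 204 in upstream CG (5.26% against 5.59%). It was found in 424 in body CHG (13.0% against 7.58%) and in 825 in upstream CHG (21.3% against 11.2%).

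Of the starch synthesis list, 4 of 24 matched genes lie in gene-poor regions, beside 4155 of all 39423 nuclear genes. Of these 4 starch genes, 3 had a little-methylated body below a heavily methylated upstream region. bt1 encodes the carrier that brings ADP-glucose into the amyloplast and lies on chromosome 5 at 112928080 to 112930204, with 14 neighbours. Its body CHG level was 5.99% and 1.07% in whole seed, 1.05% in leaf (95% Wilson interval 0.482% to 2.27%) and from 0.96% to 5.68% with a median of 1.68% in endosperm. Its upstream CHG level was 72.9% and 64.0% in whole seed, 63.2% in leaf (60.03% to 66.2%) and from 56.7% to 67.9% with a median of 60.4% in endosperm. Body and upstream thus stood apart in every library, while the tissues overlapped upstream.

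bt2, on chromosome 4 at 58954361 to 58960521, encodes the small subunit of the endosperm ADP-glucose pyrophosphorylase. Its upstream CHG level was 82.7% and 80.4% in whole seed, 79.6% in leaf and from 63.2% to 74.6% in endosperm, so that seed and endosperm did not overlap, at a limma adjusted p of 0.0555. Its body CHG level stayed between 0.85% and 4.94% in all libraries. du1, on chromosome 10 at 59506710 to 59518288, encodes a starch synthase. Its upstream CHG level was 78.6% and 80.8% in whole seed, 76.2% in leaf and from 48.9% to 70.6% in endosperm (limma adjusted p = 0.0517), and its body CHG level in endosperm had a median of 4.92%.

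zpu1, a pullulanase-type debranching enzyme of starch, was the exception in its body. Its model spans 51322 bp on chromosome 2, from 108630218 to 108681539. Body CHG was 65.3% and 59.5% in whole seed, 54.9% in leaf (53.5% to 56.2%) and from 49.0% to 60.1% with a median of 56.0% in endosperm. Upstream CHG was 87.8% and 85.7% in whole seed, 86.6% in leaf (84.3% to 88.7%) and from 68.2% to 79.4% with a median of 72.8% in endosperm. The upstream groups did not overlap, and seed stood 13.5 ± 2.83 (SE) percentage points above endosperm (limma adjusted p = 0.0216). It was the only one of the 4 starch genes to pass in upstream CHG.

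fl3, of the storage protein and regulator list, changed in opposite directions in 2 contexts. It encodes a PLATZ-type protein of the endosperm and lies on chromosome 8 at 52090731 to 52092148, with 13 neighbours. Upstream CHG was 80.5% and 82.1% in whole seed, 75.4% in leaf (68.8% to 81.0%) and from 52.9% to 67.8% with a median of 62.7% in endosperm. Seed was higher by 19.9 ± 3.99 (SE) percentage points (limma adjusted p = 0.0194). Upstream CHH was 3.29% and 2.66% in whole seed, 2.03% in leaf (1.40% to 2.94%) and from 7.55% to 17.6% with a median of 12.7% in endosperm. All 8 endosperm libraries lay above seed and leaf, and whole seed minus endosperm was -9.502 ± 2.25 (SE) percentage points (limma adjusted p = 0.0329). Of the 273 gene-poor genes that passed in upstream CHH, 2 were lower in seed, and fl3 is 1 of them.

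The other listed genes in gene-poor regions passed no test. bz15, the beta-zein storage protein gene, had low upstream CHG at 22.8% and 19.1% in whole seed, 18.7% in leaf and a median of 16.8% in endosperm. mez1, a Polycomb gene known to be imprinted in endosperm, had an upstream CHG level of 4.82% and 19.6% in whole seed, 16% in leaf and from 0% to 22.9% in endosperm, from as few as 46 calls. pep1, the phosphoenolpyruvate carboxylase of C4 photosynthesis, had an upstream CHG level of 12.1% and 13.4% in seed, 10.8% in leaf and a median of 7.30% in endosperm. These 3 lay below the gene-poor mean of 58.4% in upstream CHG. tcrr1, a response regulator of transfer cells, and gpc3, a glyceraldehyde-3-phosphate dehydrogenase, lay near it, with medians of 65.2% and 69.6% in endosperm. None of 14 matched genes of the DNA methylation machinery lies in a gene-poor region. With 4155 of all 39423 nuclear genes there, a list this short says little.

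**Figure D5:**
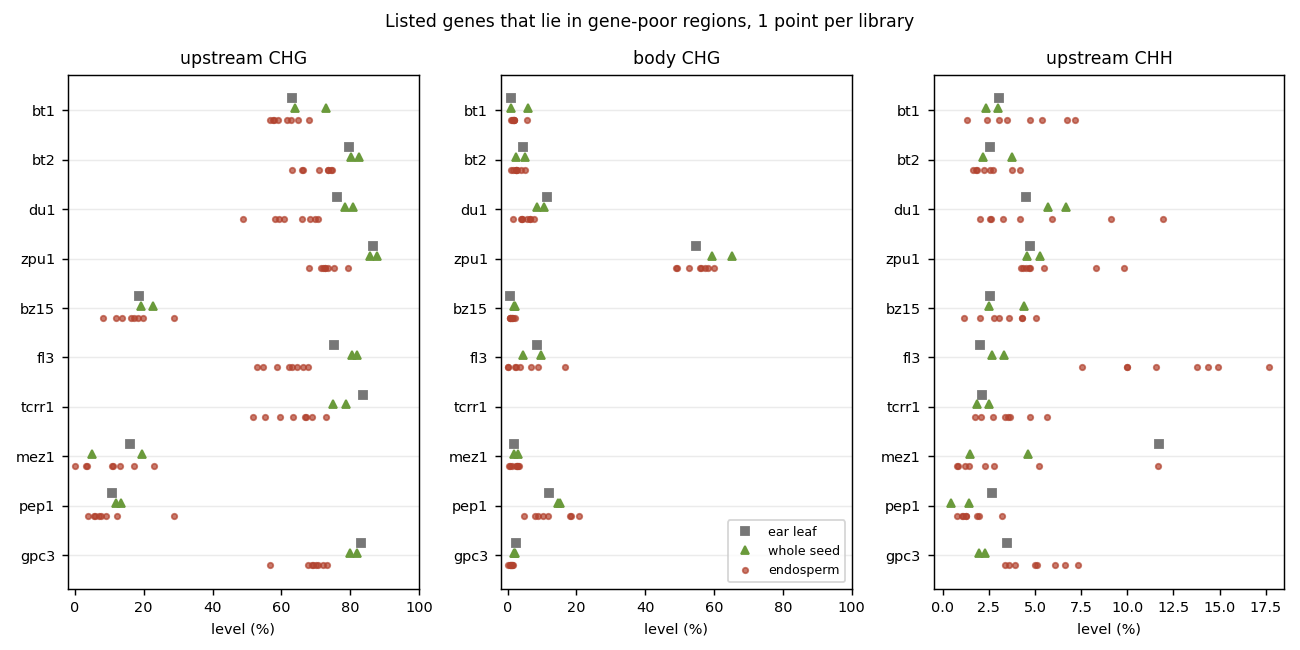
Methylation level (%) of the 10 listed genes in gene-poor regions, 1 point per library, for upstream CHG, body CHG and upstream CHH. Grey squares are the leaf, green triangles whole seed and red circles endosperm; tcrr1 body CHG was not measured, zpu1 alone has body CHG of at least 49.0% in every library, and fl3 has upstream CHH of at least 7.55% in every endosperm library.

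The 5 measured genes with the fewest neighbours, from 1 to 3, carry no gene name. All had upstream CG of at least 56.9% in every library. GRMZM2G135228, on chromosome 5 at 103713832 to 103715596, has 1 neighbour within 1 Mb. Its body CHH level was 17.5% and 16.6% in whole seed, 16.9% in leaf (13.3% to 21.2%) and from 1.55% to 10.3% with a median of 2.48% in endosperm. Seed was higher by 13.3 ± 1.92 (SE) percentage points (limma adjusted p = 0.00366). GRMZM2G417382, on chromosome 1 with 2 neighbours, had body CHH of 9.18% and 8.59% in seed, 2.79% in leaf and a median of 1.49% in endosperm (limma adjusted p = 0.0165).

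Among the 202 gene-poor genes with a name, 39 of the 188 tested passed with higher upstream CHG in seed and 0 with lower. This is 20.7%, against the 14.7% of all genes tested. TUB8 had 64.4% and 66.3% upstream CHG in whole seed, 46.0% in leaf and from 30.7% to 43.7% in endosperm, a difference of 30.0 ± 3.15 (SE) percentage points (limma adjusted p = 0.00742). knox6, a homeobox gene, had 82.0% and 62.8% in seed, 60.1% in leaf and from 33.9% to 51.5% in endosperm. RR9, a response regulator of cytokinin signalling, passed in all 3 upstream contexts: its upstream CHH was 21.4% and 19.5% in seed, 13.3% in leaf and from 5.44% to 14.0% in endosperm. CNR4, a cell number regulator, MKK3, a MAP kinase kinase, and yptm3, a small GTPase, were higher in seed by 25.3, 26.1 and 18.04 points in upstream CHG.

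Of the named gene-poor genes that passed in a gene body measure, plr354a (GRMZM2G049915) had the largest change in percentage points. It lies on chromosome 10 at 36778046 to 36779877. Its body CHH was 34.2% and 33.2% in whole seed, 15.1% in leaf (12.4% to 18.2%) and from 1.39% to 7.15% with a median of 3.37% in endosperm. The groups were far apart, with a difference of 29.9 ± 1.43 (SE) percentage points. glu1 and glu2, beta-glucosidase genes on the same chromosome, passed in body CHG and body CHH. Body CHG of glu1 was 28.7% and 24.3% in seed, 37.9% in leaf and from 4.62% to 13.2% in endosperm. Reads of glu1 and glu2 may be split between close copies, so their values are uncertain.

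Of 194 named genes tested, 2 (1.03%) rose with day in upstream CHH, against 1.85% of all genes called. tps6, a terpene synthase gene whose model spans 153143 bp, had 5.98% at day 7, 2.54% at day 9, 5.84% at day 10, 4.74% at day 11, 7.81% at day 13, 10.9% at day 15, 12.3% at day 20 and 16.7% at day 25 (limma adjusted p = 0.0247). SnRK2.6, a kinase of abscisic acid signalling, had 2.26% at day 7 and 7.08% at day 25, with 3.26% to 5.50% between (limma adjusted p = 0.0454). Both calls belong to the 63 that were lost without day 25.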

How the data were processed

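The submitters' processing notes name cutadapt, Bismark (a bisulfite read mapper) and Bowtie2. Tool versions, the genome build and how far the upstream region reaches: not given in the sources used here. Per the file headers, the deposited tables give for each gene model a count of methylated calls and a level in percent, both computed by the authors. Totals were recovered as count over level, rounded: a whole total fitted 100.0% of the 800474 values whose rounding range spans under 0.1 call. Totals behind a count of 0 were taken from the gene's remaining contexts, and a region at 0 in all 3 contexts was treated as missing. Chloroplast (57), mitochondrial (124) and unplaced (52) models were left out.

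Levels were averaged over genes per library and compared by exact two-sided permutation, adjusted over 6 measures (Benjamini-Hochberg). For single genes limma (3.58.1, R 4.3.3) was fitted to percent levels, over all measured nuclear genes whose mean level reached 1% where the context was CG or CHG. Other steps used Python 3.11.15, numpy 2.4.6, pandas 2.3.3, scipy 1.17.1 and matplotlib 3.10.9. The 95% Wilson intervals hold counting error only: without molecular identifiers, reads need not be independent molecules. Alternatives covered the window, percentile, call minimum, scale, pooling, gene classes, moderation, a quasi-binomial model and each library left out.

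The fits were tested on simulated upstream CHG levels of 10173 genes, 200 of them changed by 30 or 40 percentage points. At the observed spread limma called 58.0% of changed genes for seed against endosperm and 0 for the trend with day, and the quasi-binomial model 19.0% and 0. A spread of 0.4 times the observed one was then added, after that result was seen, to test the code: limma called 93.0% and 79.0%, and the quasi-binomial model 76.0% and 32.5%. These shares depend on the settings, and the counts of 0 with day say little on absence.

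Names and synonyms are those of NCBI RefSeq for assembly Zm-B73-NAM-5.0; coordinates are those of the deposited files. The members, gene lists and classes were chosen with earlier results of these data known. Genes named are the 5 measured ones with the fewest neighbours, all members on a list, and the largest changes among called members with a name; the text describes a part of them, picked after their values were seen.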

Additional observations from a re-analysis of the deposited data

Results flagged for a closer look

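In percentage points, the gap between whole seed and endosperm was wider in gene-poor regions than over the other genes by 2.53 in body CHG, 0.286 in body CHH and 2.65 in upstream CHG (adjusted exact permutation p = 0.0444 each); as log2 ratios the differences were 0.0041 in body CHG and 0.0038 in upstream CHG (adjusted exact permutation p = 1.0 each), and 0.107 in body CHH, where seed and endosperm libraries did not overlap (adjusted exact permutation p = 0.133). Whether the higher chloroplast CHG background of the seed libraries has a part in them was not tested.

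Of 100 groups of 8 endosperm libraries checked, 14 had a library far from the other 7. For normally distributed values chance gives about 1 in 20. The groups were the genes with the fewest neighbours, the listed genes, and the means over gene-poor genes and their differences from other genes. All 14 were single genes, and no mean was flagged. The largest gaps were in AC186013.3_FG001 at day 20, with 54.4% body CG (3.94% to 10.6% in the other 7) and 63.3% body CHG (3.45% to 11.4%). In AC193756.3_FG001 body CG was 68.8% at day 15 (86.0% to 100%) and upstream CHH 3.27% at day 9 (0.93% to 1.77%). At day 7 body CHH was 10.3% in GRMZM2G135228 (1.55% to 4.70%) and 6.48% in GRMZM2G417382 (0.80% to 3.19%), in each case the library nearest in age to whole seed. GRMZM2G164862 had 56.9% upstream CG at day 15 (78.8% to 91.9%). At day 10, bt1 had 5.68% body CHG (0.96% to 1.92%), and pep1 had 35.0% upstream CG (4.98% to 10.6%) and 28.7% upstream CHG (3.81% to 12.2%). gpc3 had 56.8% upstream CHG at day 11 (67.8% to 73.3%). mez1 had 2.28% body CHH at day 13 (0.63% to 1.08%) and 11.7% upstream CHH at day 25 (0.78% to 5.23%). tcrr1 had 7.41% body CHH at day 20 (0% to 2.78%).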

How the results depend on the processing

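The difference of gene-poor genes from the other genes in endosperm kept its sign and its call in all 6 measures under each of the 84 other values computed and with each library left out (14.4 to 14.6 percentage points in body CG, 12.01 to 12.4 in body CHG, 0.196 to 0.217 in body CHH, 16.1 to 16.4 in upstream CG, 13.0 to 13.6 in upstream CHG, -0.786 to -0.708 in upstream CHH). Outside these, body CHH among genes with leaf body CHG of 10% or more had the opposite sign (2.25% in gene-poor regions, 2.34% elsewhere). The sign-flip test passes whenever the difference has the same sign in every library, so a kept call adds little to a kept sign. The comparisons between tissues and days did not all hold. No paired analysis was possible because the labels carry no replicate numbers and each stage has 1 library. Alternatives by RefSeq match, chromosome middle, leaf body CHG and log2 ratio were added after seeing the data. Except where said, the cause of a change was not tested.

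Whole seed minus endosperm in gene-poor genes, in percentage points, no longer passed with pooled calls (body CHG 6.43, body CHH 0.760, upstream CHG 10.9, upstream CHH 1.06), among genes with leaf body CHG under 10% (0.422, 0.493, 10.1 and 1.37) and, in upstream CHH, among RefSeq models (1.34). Body CG came to pass in genes of 1000 to 5000 bp (1.91) and among RefSeq models (1.50). With 1 library left out, body CG ran from 1.36 to 2.65, body CHG from 5.31 to 6.54, body CHH from 0.774 to 1.14, upstream CHG from 10.4 to 11.9 and upstream CHH from 0.837 to 1.47; with 1 seed library the smallest p is 0.111, so none can pass.

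The same gap set against the other genes no longer passed with medians (body CHG 3.86, body CHH 0.156, upstream CHG 1.44), pooled calls (1.73, 0.00172 and 2.08), leaf body CHG under 10% (0.0583, 0.127 and 2.54) or log2 ratios (0.00407, 0.107 and 0.00380). Uncalled values changed sign: upstream CG with medians (-0.892), pooled calls (-0.276) and log2 ratios (-0.00807), body CG with pooled calls (-0.282), leaf body CHG under 10% (-0.0684) and log2 ratios (-0.0136), and upstream CHH with log2 ratios (0.000101). With 1 library left out, body CHG ran from 2.28 to 2.77, body CHH from 0.225 to 0.346 and upstream CHG from 2.44 to 2.98, with adjusted exact permutation p from 0.0556 to 0.222, since fewer splits are left.

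For r with day in gene-poor genes, upstream CHH did not pass with medians (0.701). Body CHG passed in genes of 1000 to 5000 bp (-0.807) and with leaf body CHG under 10% (-0.866). Uncalled values changed sign in body CG with medians (-0.452), regions of no methylated call as level 0 (-0.0106), genes of 1000 to 5000 bp (-0.00480), RefSeq models (-0.0160) and leaf body CHG under 10% (-0.494), and in body CHH with medians (-0.633), no methylated call as 0 (-0.0580), 1000 to 5000 bp (-0.0723) and leaf body CHG under 10% (-0.453). With 1 library left out, r ran from -0.920 to -0.659 in body CHG, -0.260 to 0.416 in body CHH, -0.881 to -0.627 in upstream CHG and 0.835 to 0.934 in upstream CHH.

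For r of the difference from other genes, the calls were lost with medians (body CHG -0.716, upstream CHG -0.653), pooled calls (-0.373 and -0.657), RefSeq models (-0.326 and -0.846) and log2 ratios (-0.596 each), and in upstream CHG with leaf body CHG under 10% (-0.804). Uncalled values changed sign in body CG with medians (-0.352), 1000 to 5000 bp (-0.0595) and leaf body CHG under 10% (-0.468), in body CHH with medians (-0.215), pooled calls (-0.190), no methylated call as 0 (-0.0654) and leaf body CHG under 10% (-0.211), and in upstream CHH among RefSeq models (0.209) and with leaf body CHG under 10% (0.146). With 1 library left out, r ran from -0.0532 to 0.465 in body CG, -0.894 to -0.784 in body CHG, -0.119 to 0.474 in body CHH and -0.900 to -0.788 in upstream CHG.

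Counts of gene-poor genes called in seed against endosperm moved with library medians subtracted (body CG 19, body CHH 144, upstream CG 11, upstream CHG 15, upstream CHH 111), day as covariate (body CG 4, body CHG 1, body CHH 100, upstream CG 0, upstream CHG 0), the quasi-binomial model (body CG 2, body CHG 33, body CHH 142, upstream CG 1, upstream CHG 384) and the arcsine scale (body CHG 265, body CHH 110, upstream CHH 135). With 1 library left out they ran from 9 to 41 in body CG, 9 to 315 in body CHG, 134 to 332 in body CHH, 0 to 24 in upstream CG, 0 to 1385 in upstream CHG and 86 to 313 in upstream CHH. With day, upstream CHH gave 4 on the arcsine scale, 36 with library medians subtracted, 0 with trended and robust moderation or the quasi-binomial model, and 0 to 77 with 1 library left out; body CHH gave 1 with library medians subtracted.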
